A study of Homo sapiens with 3 samples.

Results

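The cells described here were the OVCAR3 cells in which transcripts of CRYAB, FHL2, KRT7, S100A11, LGALS3 and LGALS1 stood highest. OVCAR3 is an established line derived from ovarian carcinoma and used as a model of the high-grade serous type. Single-cell RNA-seq, which counts unique molecular identifiers (UMIs, 1 per captured transcript) for each gene and cell barcode, was available for 3 cultures collected after 48 hours, each as 1 library. DMSO cells received the solvent alone, RAC1i cells received 50 μM of the RAC1 inhibitor NSC23766, and Combo cells received 50 μM RAC1i together with 5 μM of the EZH2 inhibitor GSK126. RAC1 is a small GTPase that acts on the actin cytoskeleton, and EZH2 is a histone methyltransferase of the Polycomb complex. The library with the EZH2 inhibitor alone was not analysed here.

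Cells were chosen by a score, the mean over the 6 genes of the natural log of 1 plus UMIs per 10000 of the cell, among cells with at least 5000 UMIs, and the top 5% of each library were taken. They are called high cells below, and the other scored cells of the same library are called the rest. This gave 336 of 6725 scored cells in DMSO, 460 of 9200 in RAC1i and 367 of 7354 in Combo, 1163 cells in all beside 22116 others. With a fixed share per library, the number of high cells says nothing about treatment. With 1 library per condition no difference between conditions or cells has a replicate check, so no p-value is given. Intervals are 95% intervals that cover counting error only. Levels are CPM, the UMIs of a gene per 1e+06 UMIs summed over the cells of a group, and differences are log2 of the ratio of CPM plus 1, written in the order DMSO, RAC1i and Combo.

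CRYAB encodes alpha B-crystallin, a small heat shock protein that holds unfolding proteins in solution. FHL2 encodes a LIM domain adaptor found at focal adhesions and in the nucleus. KRT7 encodes a type II keratin of simple epithelia that ovarian carcinomas commonly carry, and S100A11 a calcium-binding protein that partners annexins at membranes. LGALS3 and LGALS1 encode galectins, which bind beta-galactoside sugars inside and outside the cell. The study lists these 6 genes, together with PPP1R14A, an inhibitor of myosin phosphatase, among the top genes of 1 of its clusters. PPP1R14A was not in the score.

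High cells and the rest both carried epithelial markers of serous ovarian cancer lines. WFDC2 stood at 1906 CPM in DMSO (1914 in the rest), 1906 in RAC1i (1519) and 1861 in Combo (1515), EPCAM at 287 CPM in DMSO (323 in the rest), 274 in RAC1i (275) and 292 in Combo (304), and PAX8 at 265 CPM in DMSO (360.3 in the rest), 67.0 in RAC1i (53.9) and 68.0 in Combo (47.2). MUC16, another marker of such lines, was lower in DMSO high cells, at 61.5 CPM (141 in the rest). It stood at 51.7 CPM in RAC1i (42.1) and 48.7 in Combo (35.6). The markers KRT8 and KRT18 are given with the keratins below. No fibroblast marker (0 of 10), mesothelial marker (0 of 7) or leukocyte and endothelial marker (0 of 9) reached 10 CPM in high cells or rest of any library. Their summed levels were 5.15, 6.26 and 6.93 CPM in high cells against 6.08, 6.29 and 5.93 in the rest for fibroblasts, 6.62, 4.72 and 4.70 against 5.78, 3.49 and 3.42 for mesothelium, and 3.53, 16.4 and 19.5 against 3.19, 12.6 and 12.3 for leukocytes and endothelium. PTPRC, CD3E, DCN and LUM had 0 UMIs in the high cells of every library.

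High cells differed from the rest in depth, mitochondrial RNA and MALAT1 in every library, most so in DMSO, and every value below stands beside these differences. The median was 15048 UMIs in DMSO high cells against 29060 in the rest, 17254 against 23445 in RAC1i and 17661 against 28071 in Combo. Mitochondrial genes took a median of 1.83% of UMIs in DMSO high cells and 6.10% in the rest, but 1.79% against 1.52% in RAC1i and 1.91% against 1.46% in Combo. MALAT1, a long noncoding RNA kept in the nucleus, had medians of 12.7 UMIs per 10000 in DMSO high cells and 206 in the rest, 39.6 and 88.7 in RAC1i, and 43.5 and 113 in Combo. In DMSO, 196 of the 336 high cells (58.3%, 52.9 to 63.7) had under 3% mitochondrial UMIs, against 18.2% of the rest. Those 196 cells had a median of 9487 UMIs and of 6.28 MALAT1 UMIs per 10000. The 140 DMSO high cells with 3% or more had medians of 31510 UMIs and 169 MALAT1 UMIs per 10000. In the rest, the MALAT1 median was 9.80 in the 1165 cells under 3% and 245 in the others. The part of depth and RNA content in the results was not tested, so values are also given for high cells chosen again among DMSO cells with 3% or more mitochondrial UMIs (268 of 5364 cells) and for high cells chosen at matched depth, as the top 5% within each of 10 equal classes of UMIs per cell. Between libraries, 30 barcodes were shared by DMSO and RAC1i, 29 by DMSO and Combo and 30 by RAC1i and Combo, and no high cell of 1 library shared its barcode with a high cell of another.

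**Figure D1:**
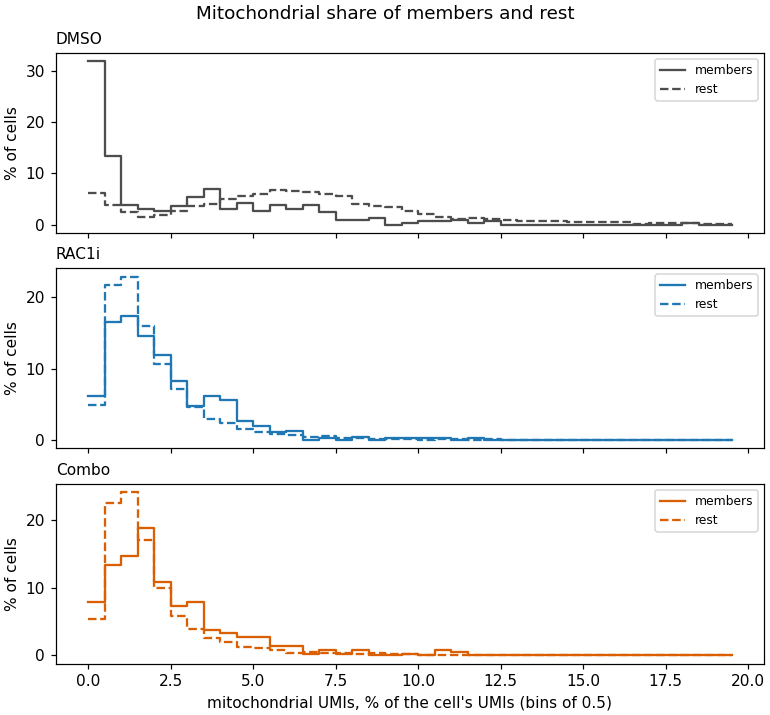
Percentage of cells (vertical axis) by mitochondrial share of their UMIs in bins of 0.5% (horizontal axis), for high cells (members, solid line) and the rest (dashed line) of each library. DMSO high cells pile up near 0, with a median of 1.83% against 6.10% in the rest, while the solid and dashed lines lie close together in RAC1i and Combo.

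The 7 genes lie on 7 chromosomes. On GRCh38 (GENCODE 44) CRYAB is at chr11:111908564-111923722 on the minus strand, FHL2 at chr2:105357712-105438513 on the minus strand, KRT7 at chr12:52232520-52252186 on the plus strand, S100A11 at chr1:152032506-152047907 on the minus strand, LGALS3 at chr14:55124110-55145423 on the plus strand, LGALS1 at chr22:37675636-37679802 on the plus strand and PPP1R14A at chr19:38251237-38256532 on the minus strand, all protein-coding. RefSeq promoter sequences (GRCh38.p14) were held for S100A11, LGALS3 and PPP1R14A with 1 start each and for FHL2 with 4 starts. The 250 bases before the start are shown for the 3 genes with 1 start, as the promoters of genes that the study lists together. Capitals mark GGGCGG or its reverse complement, the GC box. The windows were searched on both strands for this motif, for TGANTCA (the AP-1 motif), for GAANNTTC (a heat shock element core) and for TATAAA.

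S100A11 (chr1:152037005-152037254, minus strand): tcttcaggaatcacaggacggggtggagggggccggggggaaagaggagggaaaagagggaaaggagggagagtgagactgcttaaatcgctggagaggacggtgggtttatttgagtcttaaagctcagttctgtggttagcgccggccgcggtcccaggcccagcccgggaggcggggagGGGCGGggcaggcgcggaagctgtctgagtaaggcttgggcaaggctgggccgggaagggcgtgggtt
LGALS3 (chr14:55129002-55129251, plus strand): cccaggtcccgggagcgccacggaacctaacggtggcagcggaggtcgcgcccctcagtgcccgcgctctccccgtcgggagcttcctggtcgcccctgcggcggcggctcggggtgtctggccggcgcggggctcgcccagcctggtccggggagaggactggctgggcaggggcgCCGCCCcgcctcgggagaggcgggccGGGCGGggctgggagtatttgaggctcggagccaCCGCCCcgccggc
PPP1R14A (chr19:38256375-38256624, minus strand): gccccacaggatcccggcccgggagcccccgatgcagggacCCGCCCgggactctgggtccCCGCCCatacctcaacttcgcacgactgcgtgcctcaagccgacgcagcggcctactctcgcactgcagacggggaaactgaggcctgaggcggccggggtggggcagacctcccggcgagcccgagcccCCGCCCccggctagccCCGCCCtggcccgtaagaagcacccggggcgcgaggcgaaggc

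The GC box matched 1 time before S100A11, 3 times before LGALS3 and 4 times before PPP1R14A, and the other 3 motifs had no match in these windows. Of the 4 FHL2 windows, 1 held 3 GC boxes, 2 that overlap held the same TATAAA site and no GC box, and 1 held none of the 4 motifs. Among all 35116 windows of 250 bases in the table, 42.6% held a GC box, 6.57% TGANTCA, 5.78% GAANNTTC and 10.7% TATAAA. The GC content of the 3 windows was 63.6% for S100A11, 78.8% for LGALS3 and 74.8% for PPP1R14A.

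The score chose the cells, so the levels of its 6 genes are a description. In every library the score formed a single hump with a tail to the right, and the top 5% were the end of that tail and not a separate group. The score at the cut stood at 2.10 for DMSO, 1.56 for RAC1i and 1.61 for Combo, and the median score of all scored cells was 1.47, 0.947 and 0.975. The 20 cells just inside the cut had a mean score of 2.11 in DMSO and the 20 just outside 2.10, with 1.56 and 1.55 in RAC1i and 1.61 and 1.60 in Combo. Within 0.05 of the cut lay 77 high cells and 101 others in DMSO, 110 and 126 in RAC1i, and 72 and 81 in Combo.

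**Figure D2:**
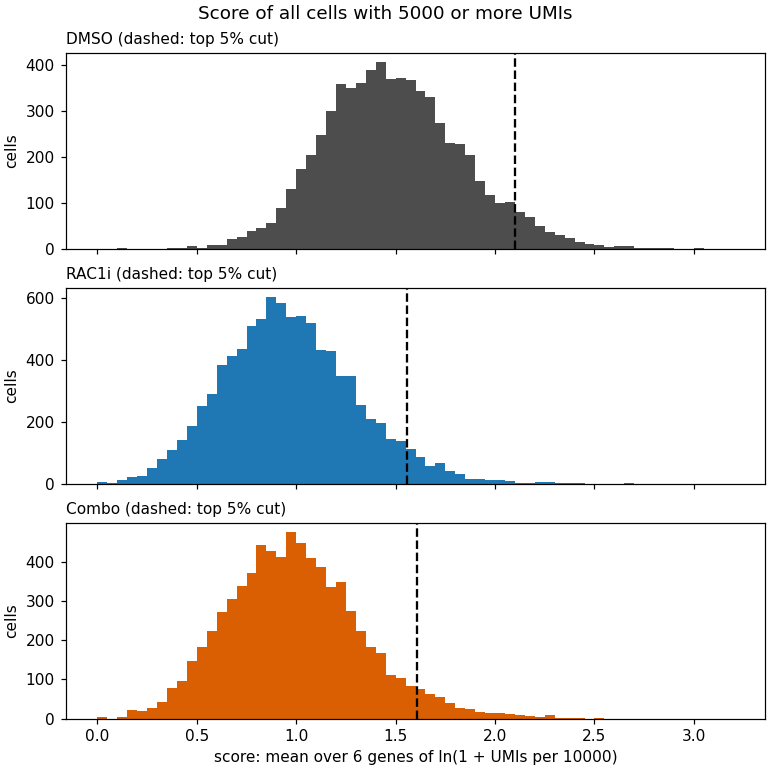
Number of scored cells (vertical axis) by score (horizontal axis, natural log scale) in each library, with the cut of the top 5% as a dashed line. The cut stands at 2.10 in DMSO and at 1.56 and 1.61 in RAC1i and Combo, whose whole distributions lie further left.

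CRYAB separated the high cells most. It stood at 1725 CPM in DMSO (189.8 in the rest), 441 in RAC1i (62.1) and 475 in Combo (49.4), which is 9.09-fold (8.90 to 9.28) in DMSO, 7.09-fold (6.85 to 7.35) in RAC1i and 9.62-fold (9.25 to 9.99) in Combo. The gene was spread unevenly among the high cells: 0.893% of them had no CRYAB UMI in DMSO, 25.7% in RAC1i and 28.1% in Combo. Under RAC1i and Combo the name of these cells therefore does not hold for CRYAB in every cell. FHL2, the other gene of low level, stood at 329 CPM in DMSO (100.3 in the rest), 157 in RAC1i (39.5) and 140.4 in Combo (32.8).

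The keratin, the S100 gene and the galectins differed by smaller folds. KRT7 and S100A11 had a UMI in all high cells, while LGALS3 had none in 5.22% of the high cells and 21.7% of the rest in RAC1i and in 4.63% and 16.3% in Combo. KRT7 stood at 2239 CPM in DMSO (1183 in the rest), 1138 in RAC1i (457) and 1453 in Combo (568), and S100A11 at 1756 CPM in DMSO (954 in the rest), 1982 in RAC1i (686) and 2079 in Combo (618). LGALS3 stood at 531 CPM in DMSO (277 in the rest), 317 in RAC1i (108) and 384 in Combo (131). LGALS1 stood at 702 CPM in DMSO (368 in the rest), 584 in RAC1i (209) and 649.5 in Combo (215). For these 4 genes the ratio of high cells to rest was between 1.84 and 1.92 in DMSO, and between 2.49 and 3.37 in RAC1i and Combo.

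**Figure D3:**
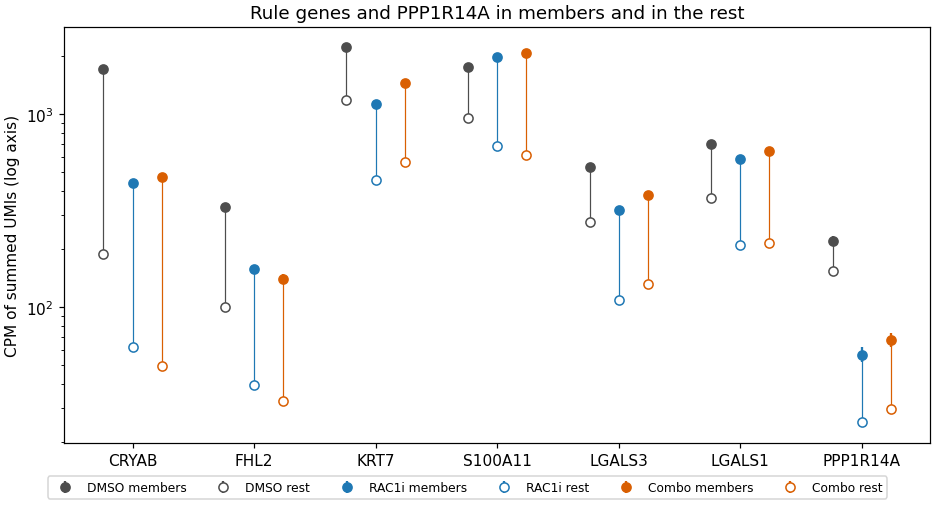
CPM of summed UMIs (vertical log axis) of the 6 score genes and PPP1R14A in high cells (members, filled points) and in the rest (open points) of each library, with 95% counting intervals that are mostly smaller than the points. Every filled point lies above its open point, and the gap is widest for CRYAB (1725 against 189.8 CPM in DMSO).

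Few high cells were high for all 6 genes. Counting for each cell how many of the 6 genes lay above that gene's own 95th percentile in the library, 237 of 336 DMSO high cells had 1 or 2, 68 had 3, 13 had 4, 3 had 5 and none had 6. In RAC1i 40 of 460 had 4 and 4 had 5, and in Combo 28 of 367 had 4, 6 had 5 and 2 had 6. High cells were thus mostly cells with 1 to 3 of the genes at the top of their range.

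The choice was also made with each gene left out in turn. The 6 genes were grouped because the study had listed them together on these samples, so these values describe the group and are not independent evidence that its genes go together. Among cells chosen as the top 5% by the other 5 genes, CRYAB stood at 768 CPM in DMSO (226 in the other cells), 195 in RAC1i (72.4) and 226 in Combo (58.8). The log2 difference between cells chosen that way and the other cells was 1.76, 1.42 and 1.92 for CRYAB, 0.90, 1.32 and 1.49 for FHL2, 0.65, 0.84 and 0.96 for KRT7, 0.62, 1.24 and 1.52 for S100A11, 0.67, 1.14 and 1.25 for LGALS3 and 0.54, 0.92 and 1.11 for LGALS1. The differences were on the higher side of 0 for each gene in each library. Leaving CRYAB out changed the choice most: 57.7% of the DMSO high cells were chosen without it, 71.1% in RAC1i and 74.9% in Combo.

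The choice also depended on which UMIs were drawn. With each cell's UMIs divided at random into 2 parts and the top 5% chosen on each part, 187 of 336 cells were chosen on both in DMSO (55.7%, 50.2 to 61.0), 261 of 460 in RAC1i (56.7%, 52.1 to 61.3) and 228 of 367 in Combo (62.1%, 56.9 to 67.1). Scored on the part not used to choose them, the chosen cells had a median score of 2.11 in DMSO, where the other cells had 1.42, and of 1.59 in RAC1i and 1.67 in Combo, where the others had 0.892 and 0.916.

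PPP1R14A, listed with the 6 genes by the study but not scored here, was also higher in the high cells. It stood at 222 CPM in DMSO (153 in the rest), 56.7 in RAC1i (25.4) and 67.6 in Combo (29.5), which is 1.44-fold (1.37 to 1.52) in DMSO, 2.23-fold (2.03 to 2.44) in RAC1i and 2.29-fold (2.09 to 2.51) in Combo. A list that the study drew up on these samples is not independent evidence of its direction. After thinning each cell to 5000 UMIs, a PPP1R14A UMI was found in 64.0% of the high cells (58.6 to 69.1) against 51.2% of the rest (49.9 to 52.4) in DMSO, in 26.3% of the high cells (22.3 to 30.6) against 11.5% of the rest (10.8 to 12.2) in RAC1i, and in 30.0% of the high cells (25.3 to 34.9) against 12.9% of the rest (12.1 to 13.7) in Combo. Unthinned shares were 91.4% and 90.5%, 56.3% and 38.3%, and 61.6% and 45.1%. No cell type that should lack the gene was in these cultures, so the share that free RNA gives was not measured, here or for the shares of cells given below. Every scored cell reached 5000 UMIs, so thinning left none out.

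Across all genes whose higher group reached 50 CPM, the 6 score genes left out, the number 2-fold or more apart differed between libraries and was not compared by a test. In DMSO 5 of 3066 genes were 2-fold or more higher in high cells (0.163%) and 12 lower (0.391%). In RAC1i 47 of 2945 were higher (1.6%) and 12 lower (0.407%), and in Combo 64 of 2936 were higher (2.18%) and 63 lower (2.15%). RAC1i and Combo shared 37 of the higher genes, which is 78.7% of those of RAC1i and 57.8% of those of Combo, and 9 of the lower genes. The 5 in DMSO were CXCL1, UCA1, CD70, NUPR1, a stress-induced chromatin protein, at 59.1 against 18.5 CPM, and IL18, a cytokine, at 124 against 59.5 CPM. IL18, NUPR1 and CD70 were named after their values were seen. CXCL1 was the 1 gene past 2-fold higher in all 3 libraries, and 0 genes were past 2-fold lower in all 3.

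These counts depended on scaling and depth. With TMM scaling the higher and lower counts were 10 and 1 in DMSO, 33 and 33 in RAC1i and 69 and 68 in Combo, and with DESeq2 size factors 13 and 0, 53 and 11, and 94 and 33. With high cells chosen at matched depth they were 6 and 1, 26 and 2, and 29 and 8. Among DMSO cells with 3% or more mitochondrial UMIs they were 6 and 0, and among cells with 20 or more MALAT1 UMIs per 10000 they were 7 and 0, 37 and 8, and 43 and 18. With the mean over cells of CPM they were 2 and 105, 42 and 20, and 63 and 90, so that DMSO had more genes apart than RAC1i.

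The 15 genes that led in the same direction in all 3 libraries included several relatives of the score genes. Among genes whose higher group reached 50 CPM in every library, ranked by the smallest of the 3 differences, they were CXCL1, KRT19, CLDN1, UCA1, HSPB1, CAV1, S100A6, S100A2, MT2A, CTSB, ANXA2, SLC39A4, HPRT1, PMEPA1 and PPP1R14A. Some of them reached 50 CPM only in the high cells, so their side of 0 there was set by that filter. These were CLDN1, PMEPA1 and SLC39A4 in every library, PPP1R14A, UCA1 and HPRT1 in RAC1i and Combo, and CAV1 and CXCL1 in DMSO. With high cells chosen at matched depth, all 15 were still higher in every library, with 9 of 15 past 1.5-fold in DMSO, 14 in RAC1i and 14 in Combo. Among DMSO cells with 3% or more mitochondrial UMIs all 15 were higher, between 0.38 and 1.43 on the log2 scale.

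CXCL1, a chemokine that attracts neutrophils, stood at 104 CPM in DMSO (42.7 in the rest), 898 in RAC1i (421) and 584 in Combo (239). In DMSO that level rested on few cells, since 79 of 336 high cells had a CXCL1 UMI and 5 of them held 46.0% of the gene's UMIs, against 10.2% in RAC1i and 11.6% in Combo. After thinning to 5000 UMIs, DMSO cells with CXCL1 were 11.3% of the high cells (8.13 to 15.2) against 10.0% of the rest (9.32 to 10.8), which overlap. In RAC1i they were 76.5% of the high cells (72.4 to 80.3) against 56.2% of the rest (55.1 to 57.2), and in Combo 66.5% of the high cells (61.4 to 71.3) against 43.7% of the rest (42.6 to 44.9). Unthinned shares were 23.5% and 25.6% in DMSO, 88.7% and 80.1% in RAC1i, and 85.0% and 70.1% in Combo. UCA1, a long noncoding RNA known from urothelial cancer, stood at 232 CPM in DMSO (92.2 in the rest), 82.1 in RAC1i (45.8) and 64.3 in Combo (37.0), and its difference was 1.43 with high cells chosen again among DMSO cells with 3% or more mitochondrial UMIs.

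Other leading genes have varied roles. CAV1, the coat protein of caveolae, stood at 88.9 CPM in DMSO (48.6 in the rest), 152 in RAC1i (86.4) and 103 in Combo (62.0). CLDN1, a tight junction claudin, stood at 55.5 CPM in DMSO (31.8 in the rest), 74.9 in RAC1i (31.4) and 56.7 in Combo (20.3). CTSB, a lysosomal cysteine protease, stood at 567 CPM in DMSO (378 in the rest), 424 in RAC1i (189) and 389 in Combo (169). With the same DMSO high cells and rest divided by mitochondrial share, the differences of CLDN1 and CTSB had opposite signs, -0.38 and -0.78 among cells under 3% and 1.18 and 0.99 among the others. MT2A, a metallothionein that binds zinc and copper, stood at 205 CPM in DMSO (132 in the rest), 11315 in RAC1i (6244) and 17800.5 in Combo (8990.3), so its libraries lay further apart than its high cells and rest. SLC39A4, a zinc importer, differed by 0.56, 1.38 and 1.47, PMEPA1, a TGF-beta-induced membrane protein, by 0.55, 1.18 and 1.55, and HPRT1, a purine salvage enzyme, by 0.56, 0.56 and 0.69.

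Other keratins differed unevenly. Of the 8 measured keratins at 10 CPM or more (VIM, the mesenchymal intermediate filament, was below it), those past 1.5-fold higher were 3 of 8, 4 of 8 and 5 of 8 and none was past 1.5-fold lower, and the median difference was 0.49, 0.51 and 0.76. KRT23 and KRT81 in RAC1i and Combo, and KRT17 in DMSO and Combo, reached 10 CPM only in the high cells. Their side of 0 there was set by that filter, and they count among those past 1.5-fold higher. Over all genes with 10 CPM or more, 1.06% were past 1.5-fold higher and 9.63% lower in DMSO, 7.5% and 10.9% in RAC1i, and 7.62% and 21.2% in Combo, with medians of -0.13, -0.16 and -0.26. KRT19, a type I keratin of simple epithelia, stood at 807 CPM in DMSO (449 in the rest), 417 in RAC1i (218) and 446 in Combo (244). KRT8 and KRT18, the paired keratins of simple epithelia, differed by 0.43, 0.37 and 0.43 and by 0.31, 0.65 and 0.65. KRT23 differed by 0.97, 0.95 and 1.15. KRT8 and KRT18 have many processed pseudogenes that can share their reads. KRT80 stood near equal in the treated libraries (0.01 and -0.05) and KRT10, a keratin of differentiating epidermis, was lower there (-0.49 and -0.54, against 0.15 in DMSO).

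For KRT81 and KRT17, keratins of low level, single cells held much of the UMIs in some libraries. KRT81, a hair keratin, stood at 16.2 CPM in DMSO (10.7 in the rest), 49.3 in RAC1i (5.69) and 24.7 in Combo (4.40), but 1 high cell held 67.3% of its UMIs in DMSO and 1 held 29.6% in RAC1i, against 6.35% in Combo. Reads of KRT81 can be shared with near-identical hair keratin genes, so its level is uncertain. KRT17 stood at 17.8 CPM in DMSO (7.49 in the rest), 16.5 in RAC1i (12.8) and 24.4 in Combo (8.42), with 47.1% of its UMIs from 1 high cell in DMSO, 5.33% in RAC1i and 21.4% in Combo.

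Of the other S100 genes at 10 CPM or more, 8 of 8 in DMSO, 8 of 8 in RAC1i and 9 of 9 in Combo lay on the higher side of 0. Of all genes at that level, 36.4%, 35.2% and 30.0% did. The ninth was S100A9, named after its values were seen, at 1.47 CPM in DMSO (0.232 in the rest), 4.50 in RAC1i (1.25) and 13.6 in Combo (0.93). It reached 10 CPM only in the Combo high cells, so its side of 0 there was set by that filter. The 8 others lay on the higher side in every library. Past 1.5-fold higher were 4 of 8, 5 of 8 and 7 of 9 S100 genes, with a median difference of 0.58, 0.61 and 0.71, S100A9 included in Combo. Of all genes at that level, 1.06%, 7.5% and 7.62% were past 1.5-fold higher. S100A6 stood at 5422 CPM in DMSO (3331 in the rest), 6493 in RAC1i (3415) and 8039 in Combo (3716), S100A10, the partner of ANXA2, at 2261 CPM in DMSO (1239 in the rest), 3143 in RAC1i (2202) and 3231 in Combo (2005), and S100A4, which binds nonmuscle myosin, at 1534 CPM in DMSO (1066 in the rest), 1671 in RAC1i (964) and 1755 in Combo (863). S100A2 stood at 237 CPM in DMSO (148 in the rest), 374 in RAC1i (207) and 499 in Combo (201). The smallest differences were those of S100A13 in DMSO (0.27) and of S100A14 in Combo (0.21), which was -0.11 with the top 2% of cells. The direction was the same among DMSO cells with 3% or more mitochondrial UMIs (0.58 for S100A6, 0.73 for S100A10 and 0.44 for S100A4) and with high cells chosen at matched depth (0.56, 0.83 and 0.96 for S100A6).

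Annexins bind membrane phospholipids in the presence of calcium. At 10 CPM or more, 8 of 8 in DMSO, 6 of 6 in RAC1i and 7 of 7 in Combo lay on the higher side of 0, some of them by very little. Those past 1.5-fold higher were 2 of 8, 4 of 6 and 5 of 7, with a median of 0.34, 0.63 and 0.73. In Combo, 1 of the 7, at 1.49, is not among those named below and reached 10 CPM only in the high cells. Its side of 0 there was set by that filter, and it is included in the Combo counts and median. Of all genes at that level, 36.4%, 35.2% and 30.0% lay on the higher side and 1.06%, 7.5% and 7.62% were past 1.5-fold higher. ANXA2 stood at 2423 CPM in DMSO (1615 in the rest), 2746 in RAC1i (1794) and 2909.5 in Combo (1753) and ANXA1, which takes part in resolving inflammation, at 310.3 CPM in DMSO (218 in the rest), 235 in RAC1i (131) and 209 in Combo (101). ANXA5 differed by 0.33, 0.65 and 0.65 and ANXA11 by 0.26, 0.83 and 0.79. ANXA3 differed by 0.74, 0.02 and 0.18 and ANXA7 by 0.29, 0.19 and 0.02. ANXA3 in RAC1i and ANXA7 in Combo were below 0 under 3 of 16 alternatives, with lowest values of -0.09 and -0.11.

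Among small heat shock proteins HSPB1, which assembles with CRYAB, stood at 841 CPM in DMSO (436 in the rest), 1070.5 in RAC1i (646) and 1128 in Combo (600.4), which is 1.93-fold (1.88 to 1.98) in DMSO, 1.66-fold (1.62 to 1.69) in RAC1i and 1.88-fold (1.84 to 1.92) in Combo. HSPB11, an intraflagellar transport protein that carries the family's symbol, differed by 0.14, 1.07 and 1.20. The medians of the wider chaperone list lay near 0, at 0.08, 0.11 and 0.12. Past 1.5-fold higher were 0 of 13, 1 of 13 and 3 of 13, and 1 of 13 was past 1.5-fold lower in Combo. Of all genes with 10 CPM or more 1.06%, 7.5% and 7.62% were past 1.5-fold higher, and 21.2% lower in Combo. Ranked by the smallest of the 3 differences, DNAJA1 led the list upwards with 0.26, 0.47 and 0.59 and HSPH1 downwards with -0.23, -0.21 and -0.25. LGALS3BP, a secreted ligand of galectin-3, was lower in DMSO high cells (162 against 199 CPM) and higher in RAC1i (69.3 against 38.4) and Combo (78.8 against 41.1). Among DMSO cells with 3% or more mitochondrial UMIs its difference was -0.02. LGALSL, a galectin-related gene, differed by 0.20, 0.01 and -0.24.

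**Figure D4:**
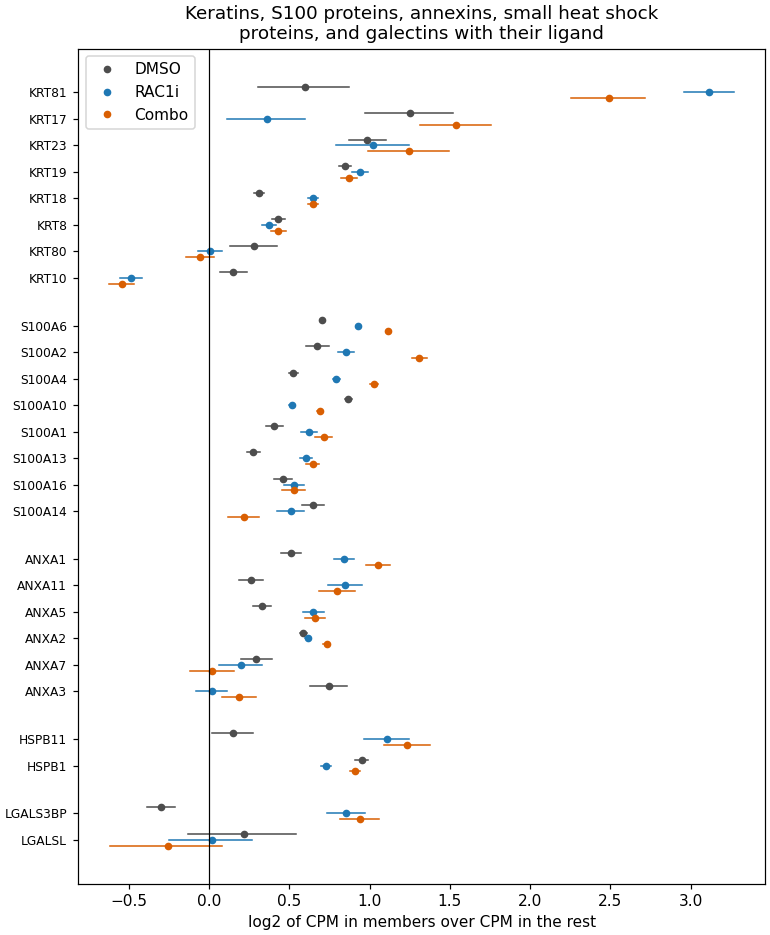
Log2 of CPM in high cells over CPM in the rest (horizontal axis) for each named keratin, S100 gene, annexin, small heat shock gene, galectin relative and galectin ligand, with 95% counting intervals, coloured by library. All 8 S100 genes and all 6 annexins lie to the right of 0 in every library, while KRT10 is on the left in RAC1i and Combo and LGALS3BP on the left in DMSO (-0.30).

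Lists tied to FHL2 and PPP1R14A, which act on the cytoskeleton, had medians of at most 0.50. In each list the genes given are those that led upwards and downwards by the same ranking. LIM domain partners of FHL2 had medians of -0.05, 0.25 and 0.19, with CSRP1 leading upwards (0.38, 0.54 and 0.50) and LPP downwards (-0.36, -0.31 and -0.38). Actin, SRF and YAP targets had medians of 0.14, 0.25 and 0.30. Among them MYL9, a myosin regulatory light chain, stood at 13.5 CPM in DMSO (9.43 in the rest), 15.3 in RAC1i (4.52) and 13.7 in Combo (4.11) and AMOTL2, an angiomotin that is induced by YAP, was lower (-0.53, -0.73 and -1.02). Actin monomer and turnover proteins had medians of 0.33, 0.36 and 0.50, with CAPG, an actin capping protein, at 0.68, 1.20 and 0.91 and RDX at -0.11, -0.44 and -0.74. The list of other inhibitors of protein phosphatase 1, which also held its subunit PPP1R12A, lay near 0, with medians of 0.10, -0.02 and 0.02. PPP1R14C, a relative of PPP1R14A, differed by 0.43, 0.64 and 1.02 and PPP1R12A, the myosin-binding subunit of that phosphatase, by -0.29, -0.38 and -0.70. MYL9 in every library, and CAPG and PPP1R14C in RAC1i and Combo, reached 10 CPM only in the high cells. Their side of 0 there was set by that filter.

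The top genes that the study lists for the cluster it called immune had medians of 0.79, 1.00 and 1.23, with 4 of 7, 8 of 10 and 7 of 10 past 1.5-fold higher, where 1.06%, 7.5% and 7.62% of all genes were. In DMSO the median depended on which cells carried it: with the same high cells and rest divided by mitochondrial share it was -0.07 under 3% and 1.07 at 3% or more, and with the mean over cells of CPM it was 0.27. That list was also drawn up on these samples. CXCL8 stood at 4.56 CPM in DMSO (3.39 in the rest), 100.0 in RAC1i (32.3) and 35.9 in Combo (13.5), and CD70, a ligand of the TNF family, at 123 CPM in DMSO (49.0 in the rest), 26.5 in RAC1i (13.6) and 28.4 in Combo (11.5). IER3 and IL6, also on the list, did not follow: IER3 differed by -0.02, -0.16 and -0.19, and IL6 stood at 3.38 CPM in DMSO (2.78 in the rest), 136 in RAC1i (138) and 74.6 in Combo (77.3). FLG, the epidermal filaggrin, was near equal in DMSO (-0.17) and higher in RAC1i (1.65) and Combo (1.56), with 31.3% of its UMIs in RAC1i high cells from 1 cell. As medians over cells, the summed genes of the list were 4.68 UMIs per 10000 in DMSO high cells against 3.18 in the rest, 12.6 against 7.98 in RAC1i and 9.24 against 5.11 in Combo. CXCL8 and IL6 were also named after their values were seen.

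Redox genes differed unevenly. NRF2 targets, ferritins and redox enzymes had medians of 0.32, 0.44 and 0.57, with 0 of 14, 6 of 14 and 7 of 14 past 1.5-fold higher, and 8, 13 and 13 of 14 on the higher side of 0. Of all genes 1.06%, 7.5% and 7.62% were past 1.5-fold higher, and 36.4%, 35.2% and 30.0% on the higher side. NQO1, a quinone reductase, differed by 0.49, 0.65 and 0.59, and FTH1, the ferritin heavy chain, whose many pseudogenes can share its reads, stood at 42098 CPM in DMSO (31697 in the rest), 27403 in RAC1i (21957) and 27294 in Combo (20132). HMOX1, the heme oxygenase that NRF2 induces, was picked out after its values were seen: it stood at 2.06 CPM in DMSO (1.68 in the rest), 28.2 in RAC1i (3.38) and 34.2 in Combo (3.73). It reached 10 CPM only in the high cells of RAC1i and Combo, so its side of 0 there was set by that filter. The counts and medians of the list in RAC1i and Combo include it.

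The lists of the cell cycle differed from each other. S phase genes had medians of -0.05, -0.07 and -0.02. G2 and mitosis genes had medians of -0.23, -0.25 and -0.43, with 9 of 50, 2 of 48 and 14 of 48 past 1.5-fold lower and none higher. Over all genes the medians were -0.13, -0.16 and -0.26, with 9.63%, 10.9% and 21.2% past 1.5-fold lower. With high cells chosen at matched depth the medians of the G2 and mitosis genes were -0.19, -0.24 and -0.23. GTSE1, which accumulates in G2, differed by -0.50, -0.68 and -0.63. After thinning to 5000 UMIs, MKI67 was found in 25.6% of the high cells (21.0 to 30.6) against 41.6% of the rest (40.4 to 42.8) in DMSO, in 23.5% of the high cells (19.7 to 27.6) against 20.7% of the rest (19.8 to 21.6) in RAC1i and in 21.8% of the high cells (17.7 to 26.4) against 22.3% of the rest (21.3 to 23.3) in Combo. Unthinned shares were 48.5% and 70.5%, 49.8% and 51.3%, and 51.5% and 55.5%. TOP2A, a topoisomerase of dividing cells, was found after thinning in 23.8% of the high cells (19.4 to 28.7) against 33.3% of the rest (32.1 to 34.5) in DMSO, in 11.3% of the high cells (8.56 to 14.6) against 17.7% of the rest (17.0 to 18.6) in RAC1i and in 14.2% of the high cells (10.8 to 18.2) against 15.8% of the rest (15.0 to 16.7) in Combo, with unthinned shares of 46.4% and 64.4%, 36.1% and 45.03%, and 31.3% and 45.2%. Intervals of high cells and rest thus lay apart in DMSO for both genes, apart in RAC1i for TOP2A and overlapped for MKI67 in RAC1i and for both in Combo. At 10000 UMIs per cell, which left out shallower cells, those of TOP2A overlapped in RAC1i (24.6% of 362.0 high cells, 20.2 to 29.4, against 29.0% of 7621.0 others, 27.9 to 30.0) and lay apart in Combo (20.3% of 291.0 high cells, 15.8 to 25.4, against 27.0% of 6146.0 others, 25.9 to 28.1). G1 cyclins and CDK inhibitors had medians of 0.17, 0.15 and 0.21, with CDKN2A at 0.46, 0.25 and 0.34 and CDKN1B at -0.45, -0.16 and -0.44. HIST1H4C, a replication-dependent histone gene, was past 2-fold lower in RAC1i and Combo but not in DMSO: it stood at 183 CPM in DMSO (294 in the rest), 148 in RAC1i (406) and 167 in Combo (436). With high cells chosen at matched depth its differences were -0.17, -1.18 and -1.25.

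The same ranking gave 15 genes that led downwards in all 3 libraries. They were MALAT1, ZBED5, HIST1H4C, ZNF770, LRRC58, KPNA1, PURB, NF1, MIDN, DUXAP8, TOPBP1, GABPB1-AS1, WWTR1, RYK and MBNL1. Some of them, such as ZBED5 in DMSO, reached 50 CPM only in the rest, so their side of 0 there was set by that filter. MALAT1 stood at 15625 CPM in DMSO (25586 in the rest), 7857 in RAC1i (13089.6) and 8681 in Combo (16054). NF1, a RAS GTPase-activating protein, differed by -0.76, -0.60 and -0.63, WWTR1, which encodes the YAP partner TAZ, by -0.57, -0.62 and -0.74, and GABPB1-AS1, an antisense RNA, by -1.08, -0.57 and -0.77. Among DMSO cells with 3% or more mitochondrial UMIs all 15 were still lower, but 1 of 15 was past 1.5-fold, against 10 of 15 in all DMSO cells. With high cells chosen at matched depth all 15 were lower in every library. Those past 1.5-fold were then 3, 7 and 9 of 15, against 10, 12 and 15 of 15 with the main choice. Small nucleolar RNA host genes, many of which are noncoding, had medians of -0.23, -0.45 and -0.76, with 0 of 14, 6 of 14 and 7 of 13 past 1.5-fold lower. Of all genes with 10 CPM or more 9.63%, 10.9% and 21.2% were past 1.5-fold lower, with medians of -0.13, -0.16 and -0.26. SNHG3 stood at 130.3 CPM in DMSO (178 in the rest), 109.9 in RAC1i (221) and 78.2 in Combo (170.4) and SNHG25, which led the list upwards, differed by 0.13, 0.45 and 0.42. In DMSO SNHG25 was at -0.13 at matched depth and -0.06 with high cells chosen again among cells with 3% or more mitochondrial UMIs.

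Several lists lay on opposite sides of 0 in DMSO and in the treated libraries. The 13 mitochondrial genome transcripts had medians of -0.68, 0.35 and 0.47, the secretory and serous lineage genes -0.45, 0.28 and 0.40, and the cholesterol synthesis enzymes -0.32, 0.44 and 0.35. MUC16, the gene of the CA-125 mucin, stood at 61.5 CPM in DMSO (141 in the rest), 51.7 in RAC1i (42.1) and 48.7 in Combo (35.6) and MSLN, its binding partner mesothelin, at 64.9 CPM in DMSO (82.3 in the rest), 67.1 in RAC1i (34.5) and 83.5 in Combo (37.7). Among DMSO cells with 3% or more mitochondrial UMIs the medians were -0.29 for mitochondrial transcripts, -0.40 for lineage genes and 0.03 for cholesterol enzymes. FDPS, which led the cholesterol enzymes upwards, stood at 501 CPM in DMSO (405 in the rest), 179 in RAC1i (112) and 207 in Combo (138). MSLN was named after its values were seen. The study's OXPHOS 6 cluster genes, which include mitochondrial transcripts and MALAT1, had medians of -0.57, 0.21 and 0.36. In DMSO their median was -0.14 with high cells chosen again among cells with 3% or more mitochondrial UMIs and -0.29 at matched depth.

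The remaining lists of 4 or more genes had medians between -0.21 and 0.46. Nuclear respiratory chain subunits had medians of 0.24, 0.18 and 0.14, cytosolic ribosomal proteins 0.09, 0.11 and 0.15, glycolysis enzymes 0.28, 0.23 and 0.18 and lysosome genes -0.12, 0.32 and 0.23. Integrins, laminins and tetraspanins had medians of -0.10, 0.37 and 0.46, epithelial adhesion genes -0.19, 0.12 and -0.06, interferon response and MHC class I genes 0.36, 0.18 and 0.11 and apoptosis regulators -0.10, -0.08 and -0.10. The DMSO medians near 0 joined unlike cells: with the same high cells and rest divided by mitochondrial share, under 3% and at 3% or more, they were -1.08 and 0.19 for integrins, laminins and tetraspanins, -0.63 and 0.07 for epithelial adhesion genes and -0.76 and 0.10 for lysosome genes. With the mean over cells of CPM the DMSO medians were -0.55, -0.51 and -0.54 for the same lists. Their leading members were LAMB3, a laminin chain (0.24, 0.84 and 0.90), PMAIP1, the proapoptotic NOXA (0.32, 0.90 and 0.89), PFKP, a phosphofructokinase (0.52, 1.06 and 1.03) and NDUFA3, a complex I subunit (0.41, 0.64 and 0.59). PFKP reached 10 CPM in RAC1i and Combo only in the high cells, so its side of 0 there was set by that filter. Downwards they were LAMA5, another laminin chain (-0.73, -0.28 and -0.31), ESRP1, an epithelial splicing regulator (-0.36, -0.43 and -0.38), XIAP, a caspase inhibitor (-0.62, -0.54 and -0.66) and GLA, a lysosomal galactosidase (-0.08, -0.17 and -0.15). GLA lay on the higher side with high cells chosen at matched depth (0.07, 0.01 and 0.10). Among DMSO cells with 3% or more mitochondrial UMIs it was at 0.09. Of the top genes that the study lists for other clusters, those of the CDD cluster had medians of 0.05, 0.22 and -0.00, those of Misc 2 -0.21, 0.04 and -0.04 and those of Misc 3 -0.14, 0.36 and 0.35. Its stem cell markers had medians of 0.22, 0.41 and 0.33 over 2 or 3 genes, with CD24 at 0.35, 0.41 and 0.34. The genes of that list ranged from -0.56 to 0.35 in DMSO, from 0.33 to 1.97 in RAC1i and from 0.32 to 0.34 in Combo. Of the mesenchymal genes 1 in DMSO and 3 in each treated library reached 10 CPM, with medians of -0.16, 1.10 and 1.43 and 0 of 1, 3 of 3 and 3 of 3 past 1.5-fold higher. The DMSO median of this list is that of 1 gene, TWIST1. The list median was 0.84 with high cells chosen again among DMSO cells with 3% or more mitochondrial UMIs and 0.80 at matched depth. The genes at 10 CPM can differ between these choices, so those medians need not be of TWIST1. With the same DMSO high cells and rest divided by mitochondrial share, 1 gene reached 10 CPM under 3% and 2 at 3% or more. SNAI1, a repressor of CDH1, stood at 1.32 CPM in DMSO (1.58 in the rest), 77.7 in RAC1i (35.6) and 129.9 in Combo (34.5).

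**Figure D5:**
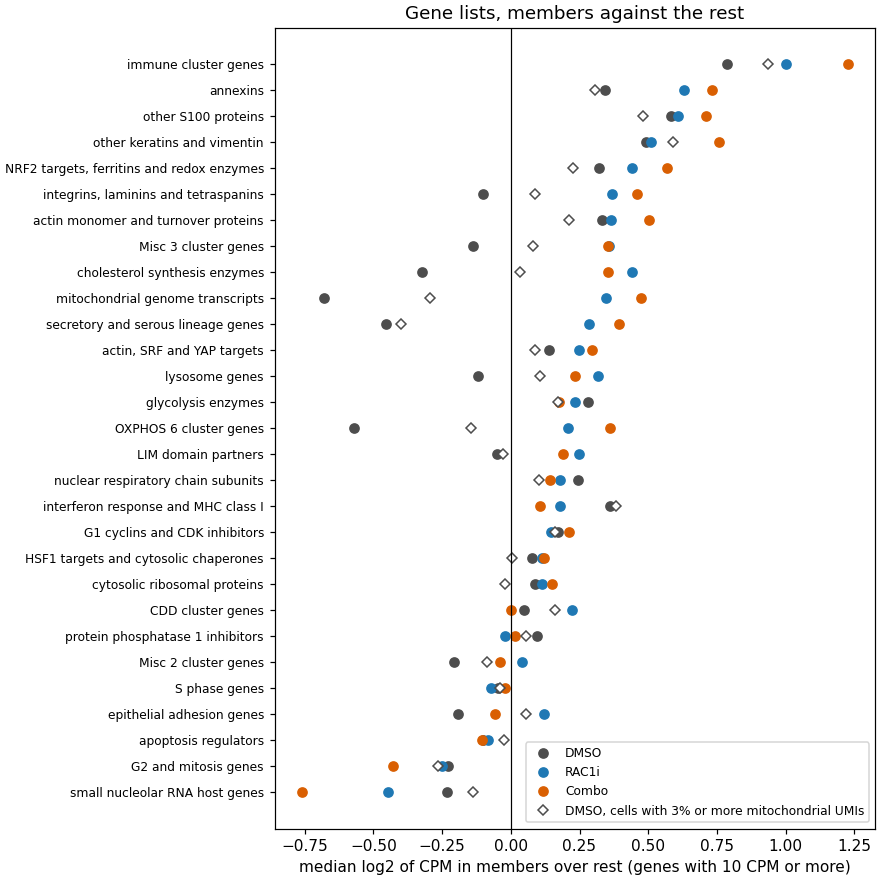
Median log2 of CPM in high cells over the rest (horizontal axis) for each list with at least 3 genes at 10 CPM or more in every library (vertical axis), coloured by library, with open diamonds for DMSO cells with 3% or more mitochondrial UMIs. Immune cluster genes, annexins, S100 genes and keratins lie to the right of 0 in all 3 libraries, and mitochondrial genome transcripts lie at -0.68 in DMSO but at 0.35 and 0.47 in RAC1i and Combo.

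Across treatments the score as a whole was lower in RAC1i and Combo. Against the DMSO cut of 2.10, 21 of 9200 RAC1i cells (0.228%, 0.141 to 0.349) and 32 of 7354 Combo cells (0.435%, 0.298 to 0.614) lay above it, where 5% of DMSO cells did by construction. With the cut set on DMSO cells with 3% or more mitochondrial UMIs the shares were 0.511% and 0.884%. The score's genes differ with treatment in all cells, so this share does not count a kind of cell.

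The score genes did not differ alike with treatment. RAC1i and Combo are compared here with the same DMSO library. The log2 difference of RAC1i from DMSO was -1.97 in high cells and -1.60 in the rest for CRYAB, -1.06 in high cells and -1.32 in the rest for FHL2 and -0.98 in high cells and -1.37 in the rest for KRT7. For S100A11 it was 0.17 in high cells and -0.48 in the rest, for LGALS3 -0.74 in high cells and -1.34 in the rest and for LGALS1 -0.26 in high cells and -0.81 in the rest. In Combo it was -1.86 in high cells and -1.92 in the rest for CRYAB, -0.62 in high cells and -1.06 in the rest for KRT7 and 0.24 in high cells and -0.63 in the rest for S100A11. The cells were chosen by these genes with a separate cut for each library, so nothing is read from which of them lay nearest the DMSO level in high cells. PPP1R14A differed by -1.95 in high cells and -2.55 in the rest in RAC1i and by -1.70 in high cells and -2.34 in the rest in Combo.

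Between high cells of different libraries many more genes were 2-fold apart than between high cells and the rest. In RAC1i 358 of 3211 genes with 50 CPM or more were higher than in DMSO high cells (11.1%) and 413 lower (12.9%), and in Combo 258 of 3093 were higher (8.34%) and 393 lower (12.7%). TMM scaling gave 453 higher and 249 lower in RAC1i and 385 and 214 in Combo, and DESeq2 size factors 454 and 283, and 379 and 248, so which direction held more genes depended on scaling. Without a replicate these counts compare libraries.

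Among genes with 50 CPM or more in the higher of the high-cell groups, some differed from DMSO more, or less, in the high cells than in the rest. FOS, an AP-1 subunit, differed from DMSO by 1.16 in high cells and -0.71 in the rest in RAC1i and 1.51 in high cells and -0.59 in the rest in Combo, so its sign differed. PLCG2, a phospholipase C, differed by 4.31 in high cells and 2.53 in the rest in RAC1i and by 4.67 in high cells and 2.43 in the rest in Combo. Of its UMIs in high cells, 5 cells held 29.3% in RAC1i and 28.6% in Combo. SNAI1 differed by 5.82 in high cells and 3.78 in the rest and RASD1, a RAS-like GTPase, by 4.14 in high cells and 1.53 in the rest in Combo. In DMSO high cells SNAI1 had 9 UMIs and RASD1 19, each in 9 cells, so these differences rest on few UMIs and on the added 1 CPM, and 5 Combo high cells held 40.4% of the RASD1 UMIs. FLG, RAB11FIP4 and ANTKMT also lay above the rest in RAC1i, and MT-ND6, a complex I subunit of the mitochondrial genome, in Combo (0.65 in high cells and -1.49 in the rest). The mitochondrial shares given above differ between high cells and rest in opposite directions in DMSO and Combo.

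In the other direction, PTRH2, a mitochondrial peptidyl-tRNA hydrolase, differed from DMSO by 1.15 in high cells and 2.21 in the rest in RAC1i and by 0.94 in high cells and 2.21 in the rest in Combo. ANKRD1, a YAP target, differed by 3.68 in high cells and 5.11 in the rest in RAC1i. NOP16, a nucleolar protein of ribosome assembly, differed by 0.76 in high cells and 1.91 in the rest in RAC1i, and MRPL16, a mitochondrial ribosomal protein, by -1.74 in high cells and -0.42 in the rest in Combo. RIT1 and C19orf48 completed the 5 lowest in RAC1i, and CCDC51, COMMD2 and MED19 those in Combo. These departures were read from the same DMSO library in both comparisons.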

How the data were processed

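Single-cell RNA-seq of OVCAR3 cells (10x Genomics 3' chemistry) was available as 1 library each for DMSO, RAC1i and Combo. Per the file headers and the study's methods, the authors ran Cell Ranger 4.0.0 on GRCh38 and deposited filtered matrices of raw UMI counts for each library. Groups came from the sample labels. From these counts, cells with over 1000 genes, at most 20% UMIs of mitochondrial genes and a ratio of log10 genes to log10 UMIs over 0.8 were kept (7531, 10215 and 8239 of 10071, 11772 and 9757 barcodes), and those with at least 5000 UMIs were scored. The scored cells held 196341800 UMIs in DMSO (median 28735 per cell), 231604423 in RAC1i (23014) and 209857287 in Combo (27471.5). The cells were not clustered and no doublet caller was run; leaving out the tenth of cells with most UMIs is among the alternatives. UMIs were summed over high cells (members) and over the rest, scaled to CPM, and compared as log2 after adding 1 CPM. A gene was counted as apart at 2-fold with 50 CPM or more in the higher group, and a list was described by its median and its counts past 1.5-fold over genes with 10 CPM or more.

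Intervals are exact 95% Poisson, conditional binomial and Clopper-Pearson intervals. They treat UMIs and cells as independent and cover counting error only. The members and all lists were chosen with earlier results of these data known. The genes named are the score genes, PPP1R14A, every keratin, S100, annexin, galectin and small heat shock gene with 10 CPM in each library, the 15 leading genes in each direction ranked by the difference nearest to 0 of the 3 libraries among genes whose higher group had 50 CPM in each, the first gene of each other list in each direction by that ranking at 10 CPM, and for RAC1i and Combo the 5 genes with 50 CPM in the higher group of high cells that departed most from the rest in each direction. Some genes that the rule names are not reported here. Markers of the line and of other cell types and the proliferation genes MKI67 and TOP2A were also given, and other genes outside that rule are marked as named after their values were seen. Alternatives changed the share of cells taken, the depth, the mitochondrial limit, the form of the score, the scaling (TMM from edgeR 4.0.16 and size factors from DESeq2 1.42.0, used for scaling only), the pseudocount and the filter on low values, and 2 that left out cells by mitochondrial share or MALAT1 were chosen after seeing the data. The scripts (Python 3.11.15, R 4.3.3) were tested on simulated data.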

Additional observations from a re-analysis of the deposited data

Results flagged for a closer look

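A set of 3 gene lists had medians on opposite sides of 0 in DMSO and in both treated libraries, each at least 0.25 away from 0 on the log2 scale and over 3 or more genes. The difference between libraries was not tested, since each condition was 1 library. The mitochondrial genome transcripts had a median log2 difference between high cells and the rest of -0.68 in DMSO against 0.35 and 0.47 in RAC1i and Combo. For the secretory and serous lineage genes the medians were -0.45 in DMSO, 0.28 in RAC1i and 0.40 in Combo. For the cholesterol synthesis enzymes they were -0.32 in DMSO, 0.44 in RAC1i and 0.35 in Combo. Among DMSO cells with 3% or more mitochondrial UMIs the medians were -0.29, -0.40 and 0.03 for the 3 lists in that order.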

How the results depend on the processing

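No paired analysis was possible because the labels carry no replicate numbers and each condition was 1 library. No replicate could be left out for the same reason. The counts of genes past 2-fold between high cells and the rest depended on most choices, and are given as higher and lower in DMSO, RAC1i and Combo. With the top 2% by score they were 11 and 51, 88 and 92, and 105 and 182, and with the top 10% 3 and 1, 17 and 2, and 26 and 8. With a minimum of 10 CPM they were 16 and 55, 174 and 46, and 220 and 210, and those between treated and DMSO high cells were 925 and 1363 in RAC1i and 698 and 1393 in Combo. With the score from cells thinned to 5000 UMIs, 3 genes were lower in DMSO, 25 higher and 3 lower in RAC1i, and 29 higher and 13 lower in Combo. Choosing at matched depth left 1 lower in DMSO, 26 higher and 2 lower in RAC1i, and 29 higher and 8 lower in Combo. Among cells with 10000 or more UMIs, 4 were lower in DMSO and 5 in RAC1i. With TMM scaling 10 were higher and 1 lower in DMSO and 33 lower in RAC1i, and against DMSO high cells 249 were lower in RAC1i and 214 in Combo. With DESeq2 size factors 13 were higher and 0 lower in DMSO and 33 lower in Combo, and 248 were lower in Combo than in DMSO high cells. These scalings moved the median difference of all genes by 0.17 in DMSO and -0.12 in RAC1i for TMM, and by 0.22 in DMSO and 0.11 in Combo for DESeq2. Averaging CPM over cells gave 2 higher and 105 lower in DMSO and 20 lower in RAC1i, and a pseudocount of 5 CPM 4 lower in RAC1i and 37 in Combo. Without DMSO cells under 3% mitochondrial UMIs 0 genes were lower in DMSO, and the shares above the DMSO cut were 0.511% in RAC1i and 0.884% in Combo. Without cells under 20 MALAT1 UMIs per 10000, 0 were lower in DMSO and 18 in Combo. KRT81 between RAC1i and DMSO high cells changed sign with the top 10% (-0.30). The cause of these changes was not tested. All 195 differences of named genes past 1.5-fold between high cells and the rest kept their sign under the 16 alternatives that applied to them, and 66 of 68 list medians at least 0.2 from 0 kept theirs under 17. The exceptions were the cholesterol enzymes in DMSO (0.03 without low-mitochondrial cells) and the CDD cluster genes in RAC1i (-0.03 when chosen at matched depth). The 195 differences and the 68 medians include the 6 score genes, whose sign was set by the choice of cells. Depth limits genes near 10 CPM and shares of cells with a UMI.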

Other observations

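Cells under 5000 UMIs were not scored for the comparisons. Of the kept cells below that depth, 92 of 806 in DMSO (11.4%, 9.30 to 13.8), 51 of 1015 in RAC1i (5.02%, 3.76 to 6.55) and 38 of 885 in Combo (4.29%, 3.06 to 5.85) had a score above the cut of their own library. The median depth of all kept cells under 5000 UMIs was 3316, 3229 and 3257 UMIs. Barcodes that were left out for over 20% mitochondrial UMIs and had 5000 or more UMIs included 0 of 361 above the cut in DMSO, which allows a share of up to 1.02% by the exact interval, 0 of 13 in RAC1i and 0 of 13 in Combo.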
